A study of Mus musculus with 2 samples.

Results

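The genes described here are Ebf1, Ebf2, Ebf3 and Ebf4, Lhx2, Ldb1 and Emx2, which encode transcription factors and a cofactor that act at olfactory receptor (OR) enhancers. They were chosen by name, and all 7 were found among the 21755 protein-coding genes that the GENCODE M21 annotation places on the mouse autosomes and X chromosome. Each gene was placed among the 7576 domain boundaries that the authors called from in situ Hi-C, a method that ligates DNA ends lying close together in the nucleus. Contacts between the stretches on either side of a boundary are fewer than those within each stretch.

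The cells were mature olfactory sensory neurons expressing the OR gene Olfr17 (also called P2), sorted by fluorescence from the olfactory epithelium of adult P2-GFP mice of strain 129P2/OlaHsd. Both sexes were mixed, no treatment was given, and there was 1 group of 2 biological replicates, with 23000 and 20000 cells. The authors combined both replicates into 1 contact matrix before calling boundaries, so no spread between replicates, no control group and no test between conditions is available, and the values below describe 1 map. A boundary list holds no expression, so the identity of the sorted cells could not be checked against markers. Neither the labels nor the list tell how many mice were pooled or how many contacts were counted.

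Ebf proteins (early B-cell factors, also called Olf/Ebf proteins) are helix-loop-helix factors with a zinc-coordinating DNA-binding domain, and they bind a palindromic sequence found near many genes of olfactory neurons. Lhx2 is a LIM homeodomain factor. In olfactory neurons Lhx2 and Ebf proteins bind together at the intergenic enhancers of OR clusters, and Ldb1, which has no DNA-binding domain of its own, is recruited by Lhx2 and holds such enhancers together across chromosomes. Emx2 is a homeodomain factor of forebrain and olfactory development that many OR genes need for normal expression.

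Each boundary is a bin of 5 kb with a class, Strong or Weak, and a score without a stated unit. The score ran from 0.200 to 4.38 with a median of 0.545, and the class followed from it, since no Weak score exceeded 0.4996 and no Strong score lay below 0.5002. Distances were measured from the annotated start of the gene (TSS) to the midpoint of the bin. The interval of a gene is the stretch between the boundaries on either side of its TSS. Scores are compared only within this list.

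In this map 4 of the 7 genes, Ebf1, Ebf2, Ebf3 and Emx2, started 5.87 to 25.8 kb inside a boundary that scored 1.61 to 2.66, and each was the only protein-coding TSS in its interval. The bodies of Ebf1, Ebf2 and Ebf3 filled 87.7 to 96.5% of their intervals. A boundary overlapped the inner start of Lhx2, while Ebf4 and Ldb1 lay among many neighbours in intervals without such a boundary. The plot of boundaries around the genes shows these arrangements side by side.

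**Figure D1:**
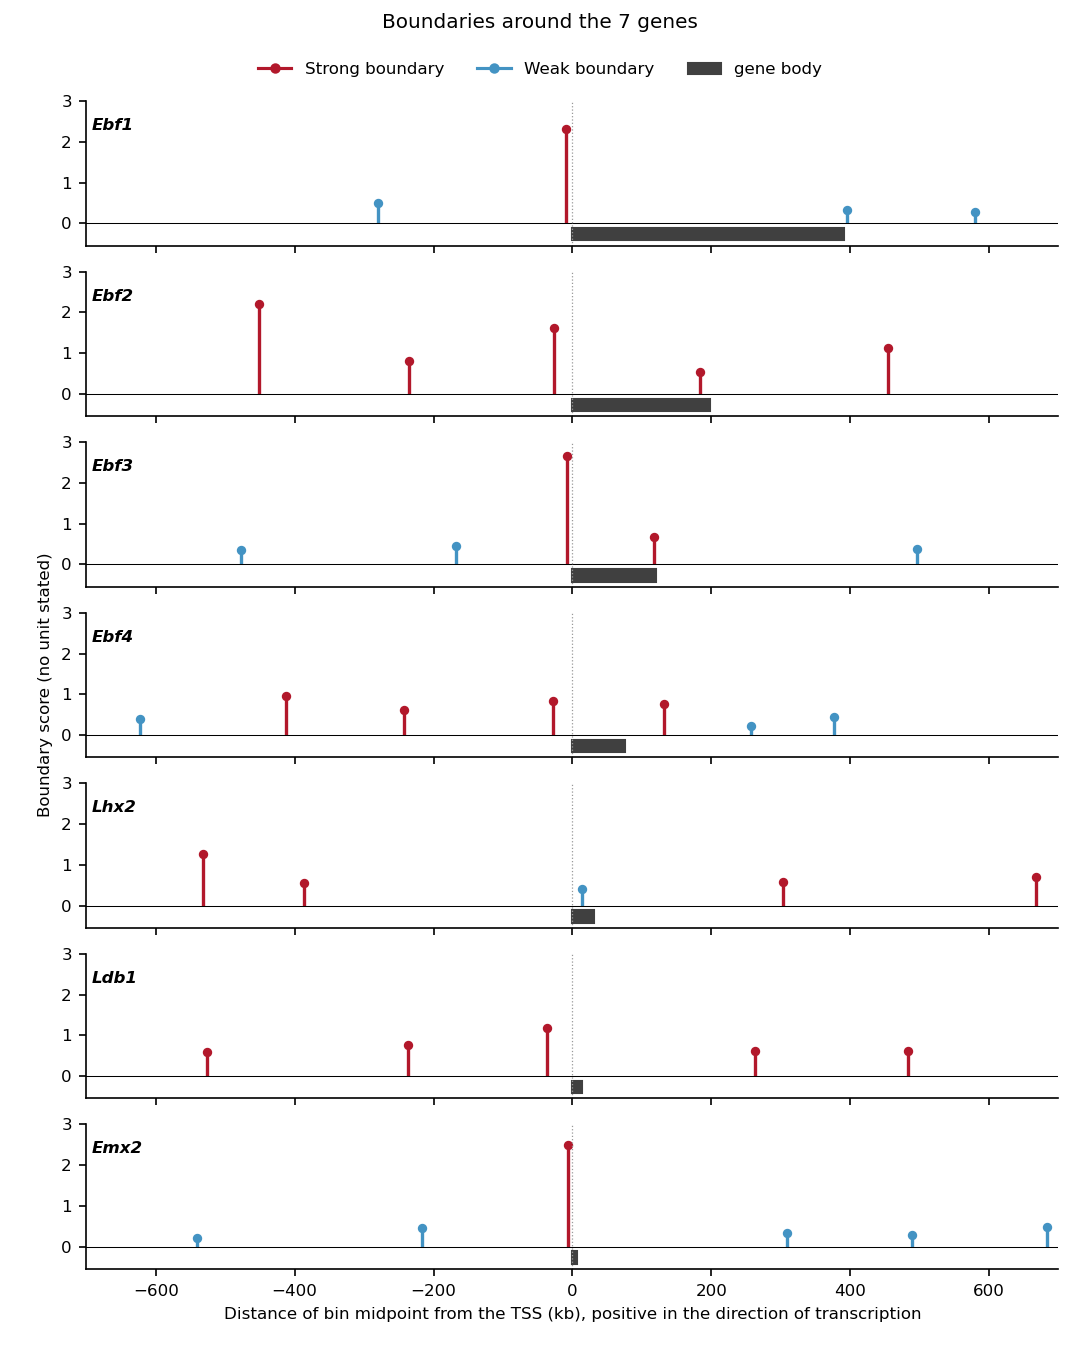
Boundary scores (vertical axis, no unit stated) against the distance of each boundary midpoint from the TSS (kb, positive in the direction of transcription), for the 7 genes. Red stems are Strong and blue stems Weak boundaries, and the dark bar is the gene body. Ebf1, Ebf3 and Emx2 have a stem of 2.31 or higher within 10 kb upstream of the TSS.

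Since CTCF, the zinc finger protein that marks many domain borders together with cohesin, is a factor often found at boundaries, its core consensus was searched on both strands within 10 kb of each boundary next to a TSS. The matches below are those at 8 of the 11 boundaries that had one. Those at both boundaries of Ldb1, 5 of 6 masked as repeat in the reference, and at the upstream boundary of Lhx2 are not printed. Among those below, the matches at the gene end of Ebf1, inside Ebf2 and upstream of Ebf3 were masked, and that of Ebf4 in part. Each match below is printed in the direction of the motif from the GRCm38 reference, with the core in capitals and 4 flanking bases on either side in lower case.
Ebf1, upstream boundary, chr11:44598183-44598202 (minus strand): agggCCAGGAGATGGCacag
Ebf1, boundary beyond the gene end, chr11:45008300-45008319 (minus strand): catgCCAGCAGAGGGCagca
Ebf2, upstream boundary, chr14:67211908-67211927 (plus strand): atatCCACTAGATGGCaccc
Ebf2, boundary inside the gene, chr14:67422816-67422835 (minus strand): gagtCCAGAAGAGGGCatcg
Ebf3, upstream boundary, chr7:137326003-137326022 (plus strand): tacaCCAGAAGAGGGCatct
Ebf4, upstream boundary, chr2:130275877-130275896 (plus strand): gaagCCAGCAGGGGGCctac
Emx2, upstream boundary, chr19:59461623-59461642 (minus strand): agtaCCATTAGGGGGCctcc
Lhx2, boundary inside the gene, chr2:38345614-38345633 (minus strand): aaaaCCACCAGGTGGCtgac

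All 7 boundaries upstream of the genes had such a match and so did 4 of the 7 downstream ones, which makes 11 of 14, while 58.0% of all boundaries in the map had one. The share was 66.1% among boundaries in the top 10% of scores. Of the 16 matches at the 14 boundaries, 8 were the same word, CCAGAAGAGGGC, and all 8 lay in sequence that the reference masks as repeat. The same word made up 54.8% of the 8858 matches at all boundaries, and 99.6% of its copies there were masked. These are matches of letters and not measured binding.

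Ebf1, the founding member of the family and a factor of B cells as well as of olfactory neurons, lies on chromosome 11 at 44617317 to 45008091 (GRCm38, plus strand). The boundary upstream of its TSS, at 44605001 to 44610000, was Strong with a score of 2.31, and its rank was 131 of 7576. It lay 9.82 kb from the TSS. On the other side the next boundary, at 45010001 to 45015000, was Weak with a score of 0.341, and it lay 4.41 kb beyond the annotated end of the gene. The gene, 391 kb long, therefore filled 96.5% of its interval of 405 kb, a larger share than in 99.7% of protein-coding genes. These were genes of all lengths, with a median length of 17.4 kb. The share filled was not compared among genes of similar length. No boundary lay inside the gene, although 59.5% of the 929 genes of 0.5 to 2 times its length had one.

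The nearest protein-coding TSS to that of Ebf1 was Rnf145 at 98.4 kb, on the far side of the upstream boundary. With Strong boundaries alone the interval of Ebf1 was 930 kb, since the next Strong boundary lay 920 kb downstream. Of the CTCF core matches at its boundaries, the one at the gene end was masked as repeat and pointed back into the gene. The upstream match lay 9.31 kb from the midpoint and pointed away from the gene.

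Ebf2, known for its part in brown fat, in the migration of neurons and in the olfactory lineage, lies on chromosome 14 at 67233292 to 67430918 (plus strand). Its upstream boundary, at 67205001 to 67210000, was Strong with a score of 1.61 and rank 626, and lay 25.8 kb from the TSS, within the noncoding gene Gm30806. The downstream boundary, at 67415001 to 67420000, was inside the gene, in the intron between exons 15 and 16 of 17 (transcript Ebf2-201). It was also Strong, with a score of 0.534, just below the median of all boundaries. It lay 13.4 kb before the gene end, and the gene covered 87.7% of the interval of 210 kb.

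Only Ebf1 and Ebf2 among the paralogs had core matches at both boundaries. Those of Ebf2 pointed towards each other, with the upstream match on the plus strand and the match near the gene end on the minus strand. These 2 matches lay 4.42 and 5.33 kb from the midpoints of their bins. The match near the gene end was masked as repeat and was the common word described above. How often matches point towards each other over all genes was not counted. The nearest other protein-coding TSS, Ppp2r2a, a regulatory subunit of protein phosphatase 2A, was 161 kb away and outside the interval.

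Ebf3, which is needed for development of the brain and for olfactory axon targeting, lies on chromosome 7 at 137193673 to 137314445 on the minus strand. The boundary upstream of it, at 137320001 to 137325000, scored 2.66, the highest of all flanking boundaries here, and ranked 43 of 7576. It lay 8.05 kb from the TSS. The downstream boundary, at 137195001 to 137200000, was Strong with a score of 0.681 and overlapped the last 3 of 16 exons of transcript Ebf3-208, with its midpoint 3.83 kb before the gene end. The interval was 125 kb, smaller than in all but 4.43% of protein-coding genes, and the gene covered 93.6% of it. A shorter coding transcript, Ebf3-205, starts within the gene, 55.0 kb from the upstream boundary.

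No core match was found within 10 kb of the boundary at the end of Ebf3. The upstream match pointed away from the gene. The nearest other protein-coding TSS, 9430038I01Rik, was 96.3 kb away.

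Ebf4, the paralog with the least similar protein, lies on chromosome 2 at 130295169 to 130370481 (plus strand), and its surroundings differed from those of the other paralogs. Its upstream boundary, at 130265001 to 130270000, was Strong with a score of 0.844 and rank 2368, and lay 27.7 kb from the TSS but 6.93 kb from that of Nop56, a core protein of box C/D snoRNA particles. The downstream boundary, at 130425001 to 130430000, was Strong with a score of 0.753 and lay 57.0 kb beyond the gene end, within Vps16, which encodes a subunit of vesicle tethering complexes, and 2.80 kb from the TSS of Pced1a. The interval of 160 kb held 9 protein-coding TSSs, and Ebf4 covered 47.1% of it. Its neighbours in order of distance were Idh3b, a subunit of mitochondrial isocitrate dehydrogenase, at 10.6 kb, Nop56 at 20.7 kb, Cpxm1 at 102 kb, Gm28372 and 1700020A23Rik, both at 110 kb, and Tmem239 at 111 kb, followed by Vps16 and Pced1a.

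**Figure D2:**
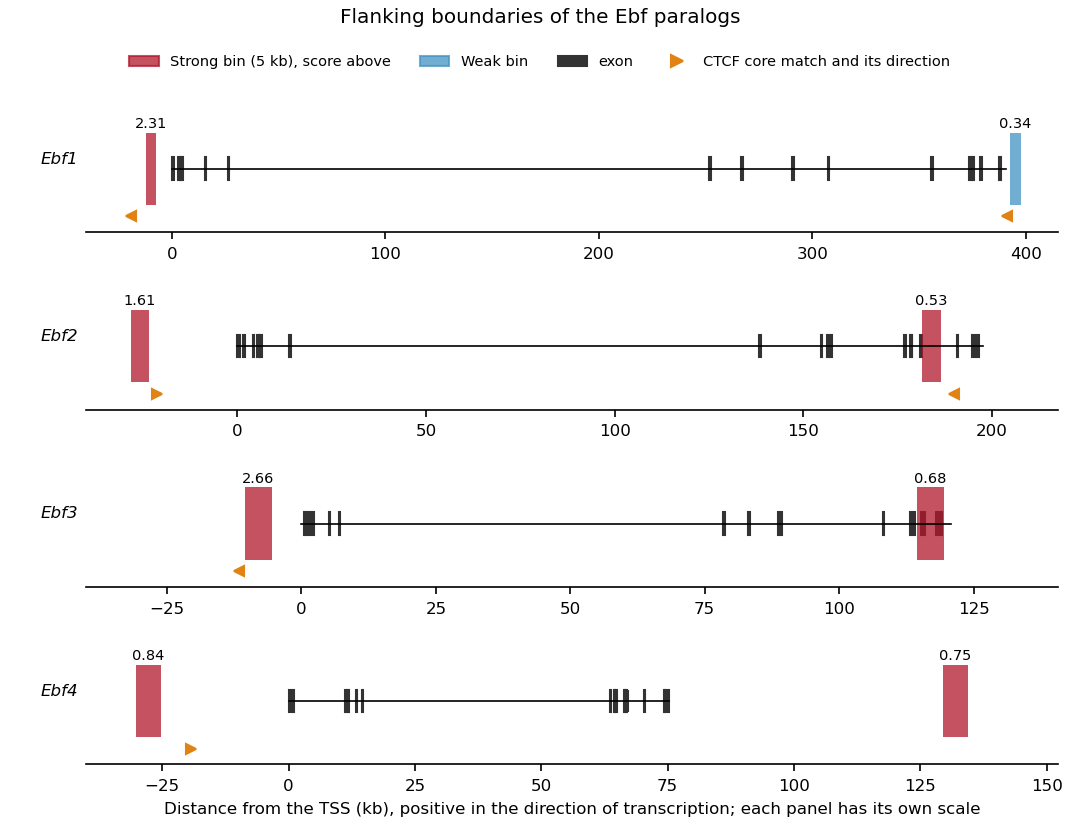
Exons (dark marks, longest coding transcript), flanking boundary bins (red Strong, blue Weak, with the score above) and CTCF core matches (orange, pointing in the direction of the motif) for the 4 Ebf paralogs, against the distance from the TSS in kb, with a scale of its own in each panel. The bins lie at or near both ends of Ebf1, Ebf2 and Ebf3, while the downstream bin of Ebf4 lies 57.0 kb beyond the gene.

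Side by side, the distance from the TSS to the upstream boundary was 8.05 kb for Ebf3, 9.82 kb for Ebf1, 25.8 kb for Ebf2 and 27.7 kb for Ebf4. The first 2 and the last 2 of these differ by less than a bin of 5 kb and so have no order. The gene end lay 3.83 kb from a boundary for Ebf3, 4.41 kb for Ebf1, 13.4 kb for Ebf2 and 57.0 kb for Ebf4. Of genes of at least 75 kb, 4.25% had a boundary within 30 kb of the TSS and another within 15 kb of the gene end, as 3 of the 4 paralogs did. These distances were set after the values were seen. The intervals ran from 125 kb around Ebf3, of 121 kb, to 405 kb around Ebf1, and the interval of Ebf4 was the second smallest.

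The proteins of the paralogs were compared as well. Over the aligned residues of the longest coding transcripts, Ebf1 and Ebf3 were 90.4% identical, Ebf2 and Ebf3 83.8% and Ebf1 and Ebf2 79.2%. Ebf4 shared 75.9% with Ebf3, 74.4% with Ebf1 and 71.4% with Ebf2, and its protein was the longest, with 696 residues against 575 to 596. The 3 more similar paralogs were those that covered 87.7% or more of their interval. With 4 genes this is a description.

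Lhx2 lies on chromosome 2 at 38339281 to 38369733 (plus strand), and it was the 1 member whose nearest boundary lay downstream of the TSS. That boundary, at 38350001 to 38355000, was Weak with a score of 0.418 and rank 4649, and lay inside the gene, 13.2 kb from the TSS. It overlapped the first 3 of 5 exons of Lhx2-201, the transcript with the longest coding sequence, whose start lies 758 bases into the bin and 1.74 kb from its midpoint. A shorter coding transcript, Lhx2-205, starts 0.0320 kb past the midpoint, so from there this boundary lies upstream. The boundary upstream, at 37950001 to 37955000, was Strong with a score of 0.565 and lay 387 kb away within Dennd1a, which encodes an activator of a Rab GTPase.

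The stretch of 250 bases just before the start of Lhx2-201, chr2:38350509-38350758 (plus strand, GRCm38), is shown because all of it lies in the boundary bin and no annotated exon of Lhx2 overlaps it. Capitals mark CG pairs.
Lhx2, before the inner start: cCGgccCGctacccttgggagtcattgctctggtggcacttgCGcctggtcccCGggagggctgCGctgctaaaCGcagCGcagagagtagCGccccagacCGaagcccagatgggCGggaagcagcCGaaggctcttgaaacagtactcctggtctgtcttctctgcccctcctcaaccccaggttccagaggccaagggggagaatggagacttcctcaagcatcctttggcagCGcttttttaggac

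This stretch held 12 CG pairs and 61.6% G and C. It held no CTCF core match, and the nearest one lay 6.88 kb from the midpoint of the bin, on the side of the outer TSS. Neither the Ebf palindrome (TCCC and GGGA with 2 bases of any kind between them, which reads the same on both strands) nor the homeodomain word TAATTA, which also does, was found in it. Most RefSeq promoters lack these words as well: 0.904% held the palindrome, 5.29% TAATTA and 1.22% a CTCF core match. Their median G and C content was 52.7%.

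The interval of Lhx2, 400 kb, held 1 other protein-coding TSS, that of Dennd1a at 51.9 kb. With Strong boundaries alone it was 690 kb, since the next Strong boundary downstream lay at 303 kb, in the proteasome subunit gene Psmb7. Of all 7 genes Lhx2 lay nearest to an OR gene, 1.01 Mb from Olfr368, and 4 boundaries lay between them. One of these, 987 kb upstream of Lhx2, had the fourth highest score of the map (3.42). For the other members the nearest OR gene was between 2.85 Mb (Ebf3) and 45.5 Mb (Emx2) away, with 11 to 136 boundaries between, so no member shared an interval with an OR gene.

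Ldb1 lies on chromosome 19 at 46031570 to 46045214 (minus strand). Its upstream boundary, at 46080001 to 46085000, was Strong with a score of 1.17 and rank 1364, lay 37.3 kb from the TSS, and was inside Nolc1, a gene for a nucleolar phosphoprotein. The downstream boundary, at 45780001 to 45785000, was Strong with a score of 0.606. It lay 263 kb from the TSS and 1.34 kb from that of Mgea5, which encodes the enzyme that removes O-GlcNAc from proteins. The interval of 300 kb held 7 protein-coding TSSs. The nearest to Ldb1 was Pprc1, a transcriptional coactivator gene, whose start lay 0.328 kb away on the opposite strand. Nolc1 followed at 30.6 kb, Hps6 at 41.7 kb, Armh3 at 46.7 kb, Kcnip2 at 229 kb and Mgea5 at 261 kb. Of the 6 core matches at its boundaries 5 were masked as repeat.

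Emx2, also on chromosome 19 at 59458372 to 59465357 (plus strand), had a boundary 5.87 kb from its TSS, within a bin of the distance at Ebf3 and farther than that from the inner start of Lhx2. The boundary at 59450001 to 59455000 was Strong, scored 2.50, ranked 73 of 7576 and lay upstream, within the antisense gene Emx2os. The next boundary downstream, at 59765001 to 59770000, was Weak with a score of 0.323 and lay 309 kb away. The interval of 315 kb held no other protein-coding TSS, and Emx2, at 6.99 kb, covered 2.22% of it. With Strong boundaries alone the interval was 1295 kb, since the next Strong boundary downstream lay 1289 kb away. The core match near the upstream boundary lay 9.13 kb from its midpoint, inside Emx2 and 3.26 kb past the TSS.

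Ordered by distance from the outermost annotated TSS to the nearest boundary, the genes were Emx2 (5.87 kb), Ebf3 (8.05 kb), Ebf1 (9.82 kb), Lhx2 (13.2 kb), Ebf2 (25.8 kb), Ebf4 (27.7 kb) and Ldb1 (37.3 kb). Neighbours in this order up to Lhx2, and Ebf2 and Ebf4, lay within 5 kb of each other. The median was 13.2 kb, against 59.2 kb over all protein-coding genes (quartiles 26.5 and 107 kb). A boundary lay within 25 kb for 4 of 7 genes and for 23.9% of all protein-coding genes. Ebf2 and Ebf4 fell just outside this distance. The median interval was 300 kb for the members and 275 kb for all genes, and the members ranged from 125 to 405 kb.

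**Figure D3:**
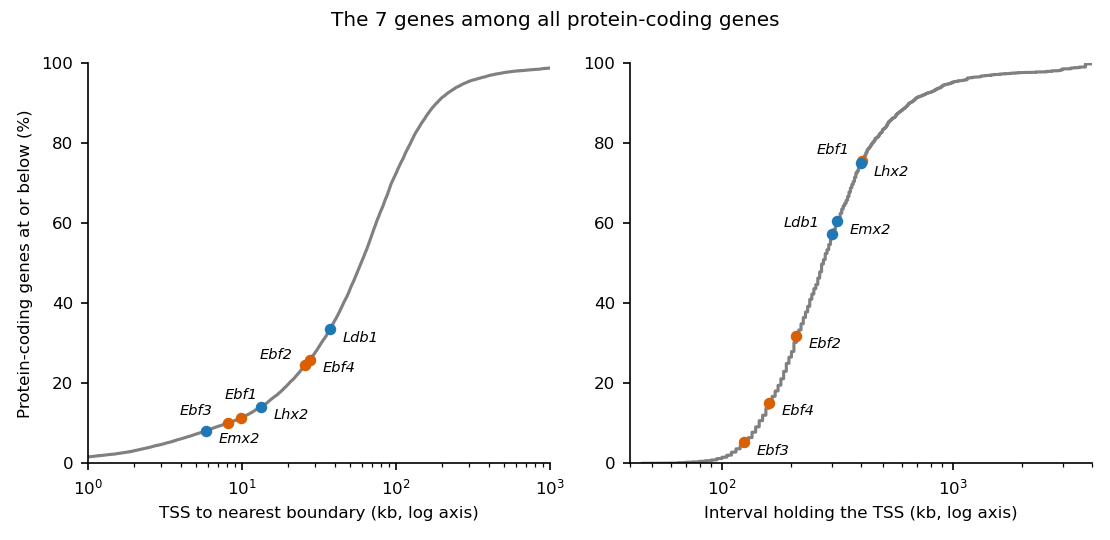
Cumulative share of all protein-coding genes (grey line, %) by the distance from the TSS to the nearest boundary (left) and by the size of the interval (right), both in kb on log axes. The Ebf paralogs (orange) and Lhx2, Ldb1 and Emx2 (blue) lie below the median of 59.2 kb for distance, and on both sides of the median of 275 kb for interval size.

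A boundary lay inside 3 of the 7 genes (Ebf2, Ebf3 and Lhx2), and inside 13.0% of all protein-coding genes. The median length of the members was 75.3 kb against 17.4 kb over all genes, though Ldb1 (13.6 kb) and Emx2 (6.99 kb) were shorter. Longer genes hold boundaries more often. Among genes of similar length the share with a boundary inside was 40.3% for Ebf2, 28.7% for Ebf3 and 12.5% for Lhx2. For the members without one it was 59.5% for Ebf1, 21.4% for Ebf4, 7.95% for Ldb1 and 4.31% for Emx2.

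The boundary upstream of the TSS was the nearer one for 6 of 7 genes, against 52.0% of all protein-coding genes. It also had the higher score for all 7, against 51.3%. For Lhx2 the order turned at 1 of its annotated coding starts, that of Lhx2-205, from which the upstream score was 0.418 and the downstream score 0.580. The ratio of the upstream to the downstream score was 7.75 for Emx2, 6.76 for Ebf1, 3.91 for Ebf3 and 3.01 for Ebf2. It was 1.92 for Ldb1, 1.35 for Lhx2 and 1.12 for Ebf4.

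**Figure D4:**
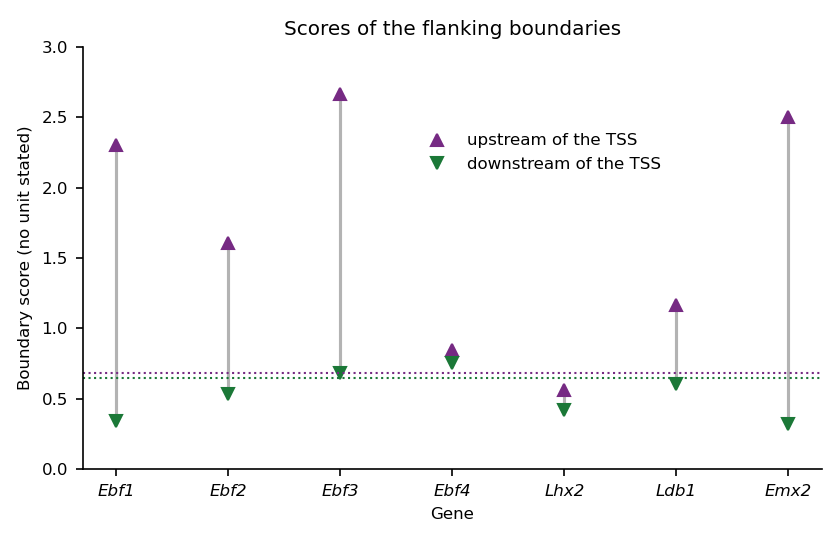
Scores (no unit stated) of the boundaries upstream (purple, pointing up) and downstream (green, pointing down) of each TSS, joined by a grey line. Dotted lines are the medians over all protein-coding genes, 0.681 upstream and 0.650 downstream. The upstream scores of Ebf1, Ebf2, Ebf3 and Emx2 lie between 1.61 and 2.66, while the downstream scores of all 7 genes lie between 0.323 and 0.753.

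The upstream boundary was in the top 10% of all scores (1.49 or higher) for Ebf1, Ebf2, Ebf3 and Emx2, that is for 4 of 7 genes, against 11.7% of protein-coding genes. For the same 4 it also lay within 30 kb of the TSS, which was true of 1.94% of protein-coding genes. The same 4 again were alone in their interval, without another protein-coding TSS, as were 8.73% of protein-coding genes. Of the 22 genes for partners and relatives described below, 11 were alone in their interval too, so this trait was not particular to the members. Score, distance and gene number were compared after the values had been seen, and the members are too few for a test.

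These 4 genes also lay in stretches with few genes. Within 500 kb of the TSS there were 3 other protein-coding TSSs at Ebf1 and at Ebf3, 6 at Ebf2 and 7 at Emx2, against a median of 16 over all genes. Lhx2 had 4. Ebf4 and Ldb1 had 23 each, more than 66.2% of protein-coding genes. The number of boundaries within 500 kb ranged from 3 to 6, around the median of 4. The part of gene density in the intervals and scores was not tested.

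Of 22 genes for partners and relatives of the members, 3 had a boundary within 25 kb of the TSS, against 23.9% of all protein-coding genes. Their median distance was 58.3 kb, close to the 59.2 kb over all genes, and their median interval was 332 kb against 275 kb. Among the 8 partners of the Ldb1 complex (Ldb2, Ssbp2, Ssbp3, Ssbp4 and Lmo1 to Lmo4), which are single-stranded DNA-binding and LIM-only proteins beside the Ldb1 paralog, Ssbp2 had a boundary 7.22 kb from its TSS. A boundary lay inside Ssbp2, Ssbp3 and Lmo3. Among the 11 other LIM homeodomain genes Lhx1 (8.04 kb) and Isl1 (12.2 kb) were within 25 kb of a boundary, and Lmx1a had a boundary inside.

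None of the 22 had an upstream boundary in the top 10% of scores within 30 kb, which for a list of this size is near the share of 1.94% over all genes. At any distance, upstream scores in the top 10% were found at Lhx8 (2.14), Lmo1 (1.72), Lhx1 (1.65), Lhx9 (1.64) and Lhx6 (1.52). Emx1, the paralog of Emx2, also had one, of 1.61 at 44.9 kb. Over all protein-coding genes the share with such a score was 11.7%. Ldb2, which at 328 kb is much longer than Ldb1, had an upstream boundary at 32.8 kb, but its flanking scores were 0.362 and 0.211. Zfp423 and Zfp521, zinc finger proteins that bind Ebf proteins, had no boundary within 133 and 285 kb of the TSS. The upstream score was the higher one for 14 of the 22, against 51.3% of all genes.

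The protein-coding genes most like each member in upstream distance, downstream distance and gene length were sought among 21551 others, by the distance between the log10 values of all 3 measures. They were Rere for Ebf1 (distance 0.0717), Tspan9 for Ebf2 (0.0546), Qk for Ebf3 (0.0438), Atf2 for Ebf4 (0.0403), Il18rap for Lhx2 (0.0850), 4930568D16Rik for Ldb1 (0.0301) and Dus1l for Emx2 (0.0204). Scores were not part of this measure. The upstream boundary scored 0.523 at Rere, 1.01 at Tspan9, 0.925 at Qk, 0.299 at Il18rap, 0.832 at 4930568D16Rik and 0.734 at Dus1l, in each case below that of the member it was matched to. At Atf2 it scored 0.860, above the 0.844 of Ebf4.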

How the data were processed

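In situ Hi-C was performed with DpnII on formaldehyde-fixed cells, per the labels. Per the labels' design text, the authors merged the contacts of 2 replicates and called boundaries once, with coordinates in GRCm38 per the submitters' processing notes. The deposited boundary score (unit not stated) and class were used as given. No label names the caller, its window or the aligner. The reference is C57BL/6J and the mice were 129P2/OlaHsd.

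Genes came from GENCODE M21 and sequence from RefSeq's GRCm38.p6, the build of the list. The 32619 RefSeq promoters on the chromosomes used were identical to that genome at their coordinates. Tables were computed with Python 3.11.15 and pandas 2.3.3, and the lookups were tested on simulated data. Proteins, translated from the annotated coding sequence, were aligned with Biopython 1.88 (BLOSUM62, gap penalties 11 and 1, free end gaps). The CTCF core consensus was searched within 10 kb of the midpoints.

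No statistical test was made: the members are 7 genes in 1 map. Members and lists were chosen with earlier results of these data known. Genes named are the members, the protein-coding neighbours in their intervals (up to 6, nearest first), the genes at their boundaries, the nearest OR gene, the most alike gene, and list genes with a boundary within 10 kb or inside. Isl1, Lhx6, Lhx8, Lhx9, Lmo1, Emx1, Ldb2, Zfp423, Zfp521 and the OR-side boundary of Lhx2 were chosen after seeing their values. Alternatives tried were the Strong class alone, boundaries above the median score, bin edges, other transcript starts and spans, and distances of 10 and 50 kb.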

Additional observations from a re-analysis of the deposited data

How the results depend on the processing

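With Strong boundaries only, the median interval stayed at 300 kb, while that over all genes rose from 275 to 480 kb. With the same boundaries the median distance from TSS to boundary rose to 25.8 kb (100 kb over all genes). A boundary then lay inside 2 of 7 members, without Lhx2 (8.11%). With boundaries above the median score the median distance was also 25.8 kb (108 kb), and the median interval was 480 kb (510 kb). A boundary lay inside 1 of 7 members and 1 of 4 Ebf paralogs (7.62%), since those of Ebf2 and Lhx2 fell below the median score. From the coding transcript start nearest to a boundary the median interval was 290 kb, because Lhx2-205 starts past its boundary. Within 50 kb, 7 of 7 members had a boundary, against 43.2% of all genes, and within 10 kb 3 had one, against 11.5%. The count within 25 kb ranged from 3 to 5 under the other settings. Of 70 single distances and intervals, 58 moved by at most 5 kb, though with bin edges no value could move farther. The 12 others included large changes with Strong boundaries only. There the distance of Lhx2 went from 13.2 to 303 kb and the interval of Emx2 from 315 to 1295 kb. No replicate could be left out and no paired analysis was possible because the list was called on both replicates combined. Positions are no finer than the bin of 5 kb.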

Other observations

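The Ebf palindrome (TCCC and GGGA, 2 bases apart) was found within 10 kb of 3 of the 14 boundaries next to the members, and within 10 kb of 30.6% of all boundaries. Both boundaries of Ebf1 had it: 2 matches lay 5.00 and 5.49 kb from the upstream midpoint, between the boundary and the TSS, and 1 lay 0.916 kb from the midpoint beyond the gene end. The upstream boundary of Ldb1 had 1, at 8.31 kb. Of the 10 RefSeq promoters listed for 6 of the members (Ebf2 is not in that table), none held the palindrome, which 0.904% of all promoters in the table hold, and 1, that of Emx2, held TAATTA, which 5.29% hold.

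The DpnII sites in the bins next to the members numbered 5 to 19, with a median of 12 over all boundaries (quartiles 9 and 15). The upstream bins of Ebf1, Ebf2, Ebf3 and Emx2, with the highest scores, had 10, 6, 11 and 14 sites. Below the lower quartile, besides that of Ebf2, were the upstream bins of Ebf4 (7) and Ldb1 (5) and the bins inside Ebf2 (8) and Ebf3 (6). None of the 14 bins held unsequenced bases.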
